A study of Mus musculus with 9 samples.

Results

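The mouse orthologues of genes near loci for late-onset Alzheimer's disease were examined in microglia, the macrophages that reside in brain tissue. The group was a list of 32 gene names. It, its role groups and the marker lists used below were chosen with earlier results of these data known. Of the 32 genes, 31 were matched to a probe set with a single gene symbol, among 22180 such genes on the arrays. Picalm had no such match and was not analysed here. Of the 31 genes, 30 had 1 probe set and Cass4 had 2, of which the brighter was used.

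Total RNA of microglia sorted by FACS from female C57Bl/6 mice at 24 to 28 weeks was measured on 9 arrays, 3 for each of 3 genotypes. Wild type mice were labelled with no floxed allele. FAD mice, labelled FAD Hdac1/2fl/fl, carried a familial Alzheimer's disease background and floxed alleles of the histone deacetylase genes Hdac1 and Hdac2. FAD DKO mice carried the same alleles and Cx3cr1CreERT2, a tamoxifen-inducible Cre recombinase expressed from the fractalkine receptor locus, which is active in microglia and other Cx3cr1-expressing myeloid cells. Mice of all genotypes, wild type included, received 8 mg tamoxifen at 6 weeks of age. The labels do not give the FAD transgenes or their promoter, and they do not say whether the arrays of a group came from separate animals. The p-values set group differences against the spread between these samples. That spread may be technical, so the tests may not extend to other animals. FAD and wild type differed in both the transgenes and the floxed alleles, and FAD DKO and FAD in both the presence of Cre and the deletion; these cannot be told apart here.

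Loci associated with late-onset Alzheimer's disease are enriched for genes active in myeloid cells, and many of their products act in endocytosis, lipid transport, immune receptor signalling and the lysosome. For most loci the gene that carries the risk is inferred from its position, so the list holds genes that microglia use and genes better known from astrocytes, neurons or testis. Values are given as deposited log2 signals, on which a difference of 1 is a doubling. Since brightness also depends on the probe sequences, levels are compared between arrays of 1 gene, and the ranges given over several genes rank no gene above another.

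The targeted genes were lower in FAD DKO than in FAD, Hdac1 by -0.56 (SE 0.147) and Hdac2 by -0.68 (SE 0.099) on the log2 scale, with no overlap between the groups, although neither passed the test over all genes (limma adjusted p = 0.376 and 0.159). Hdac2 passed with the filter on dim probe sets and with robust moderation to a variance trend (limma adjusted p = 0.0458 and 0.0337). These probe sets may lie outside the deleted parts. Of 10 microglia markers 9 were measured, with mean signals from 9.40 to 12.07. In FAD DKO against wild type 3 of the 9 had an unadjusted p under 0.05 and groups that did not overlap, all lower (33.3%). Over all genes 8.14% had such a p and 11.9% did not overlap (6.15% lower). Among these 3 markers Cx3cr1, the locus that carries the Cre allele, had means of 12.20 for wild type, 12.12 for FAD and 11.88 for FAD DKO. In FAD DKO against FAD 1 marker was higher and 1 lower at that p (22.2%, beside 8.1% of all genes). There 6 of the 9 lay above 0 and 3 below. FAD against wild type gave 0 at that p. Among the lists of other cell types, that of monocyte and neutrophil genes varied most between arrays, with mean signals of 6.65 to 7.28 for wild type, 7.31 to 7.41 for FAD and 6.13 to 7.92 for FAD DKO.

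Ms4a6b and Ms4a6c, neighbours in a cluster of membrane protein genes on chromosome 19, were the members with the lowest unadjusted p in FAD against wild type. Their upstream sequences show what these copies share before the start. The 250 bases before the RefSeq start of each gene are printed 5′ to 3′ (build GRCm38.p6, plus strand; chr19:11518309-11518558 for Ms4a6b and chr19:11469118-11469367 for Ms4a6c). Capitals mark the longest run of 48 bases that both share, which lies 118 to 71 bases before the start of Ms4a6b and 49 to 2 bases before that of Ms4a6c.
Ms4a6b: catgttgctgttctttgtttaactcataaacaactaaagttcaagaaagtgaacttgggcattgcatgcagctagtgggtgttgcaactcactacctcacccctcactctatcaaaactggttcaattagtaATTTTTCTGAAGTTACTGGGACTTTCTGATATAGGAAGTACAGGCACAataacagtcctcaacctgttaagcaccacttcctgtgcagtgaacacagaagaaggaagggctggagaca
Ms4a6c: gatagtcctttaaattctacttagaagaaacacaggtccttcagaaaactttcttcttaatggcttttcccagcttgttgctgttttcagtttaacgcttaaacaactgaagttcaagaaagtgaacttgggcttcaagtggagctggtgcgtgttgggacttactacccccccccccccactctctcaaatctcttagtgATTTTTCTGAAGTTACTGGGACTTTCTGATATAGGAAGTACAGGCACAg
A global alignment of the 250-base windows paired 175 bases, of which 149 were identical. That is 85.1% of the paired bases and leaves out the rest of each window, which lay opposite gaps. Copies that share sequence upstream may also share transcript sequence, so their probe sets may not separate them fully, which was not tested.

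RefSeq start sites were found for 24 of the 32 genes, with 29 upstream windows of 250 bases, and none was listed for Bin1, Clu, Apoc1, Ms4a6d, Scimp, Abi3, Ptk2b and Wwox. The median GC content of these windows was 58.0%, beside 52.4% over 32851 windows of all genes. The windows of Ms4a6b (42.0%, 0 CpG) and Ms4a6c (42.4%, 2 CpG) were the lowest 2, and that of Picalm was the richest (79.2%, 39 CpG). The letters GAGGAA, the core bound by the myeloid factor PU.1 among other ETS proteins, occurred on either strand in 11 of 29 windows and in 23.3% of all windows. The GC box GGGCGG occurred on either strand in 15 of 29 windows and in 32.7% of all. The same search found an AP-1 motif in 0 of 29 windows, beside 4.46% of all. It found an interferon element in 1 of 29, beside 2.98% of all. The part of the higher GC content of these windows in the motif counts was not tested.

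No detection calls were used, so levels are set against the median of all probe sets. The mean signal of 24 of 31 lay at or above the median of all probe sets (5.35), and the same 24 lay above the median of the array on each of the 9 arrays. The other 7 were Clu, Apoc1, Ace, Fermt2, Echdc3, Slc24a4 and Nme8, called dim below, whose low signals leave little room to see a decrease. Lying above that median does not show expression: the oligodendrocyte genes Mbp and Mag (means 5.87 and 5.71) and the neuronal gene Camk2a (5.79) did so on all arrays. Among the 7 dim genes Clu, which encodes the lipid-carrying chaperone clusterin and is abundant in astrocytes, ran from 5.16 to 5.41 over the 9 arrays. Nme8, a thioredoxin-domain gene best known from testis, ran from 2.95 to 3.36. Of 10 astrocyte markers 7 lay below the array median on all arrays; Slc1a3, a glutamate transporter also reported in myeloid cells, had a mean of 7.55.

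The signals varied little between arrays. Over all 9 arrays 22 of 31 genes spanned less than 0.5 on the log2 scale, and the median span was 0.358, beside 0.452 over all genes tested. Rin3, an exchange factor for the early endosome GTPase Rab5, spanned 0.162 and Sppl2a, an intramembrane protease of lysosomes and late endosomes, 0.163. Apoc1, a small apolipoprotein, spanned most (0.936), with 4.54 in wild type replicate 1 as its lowest value.

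**Figure D1:**
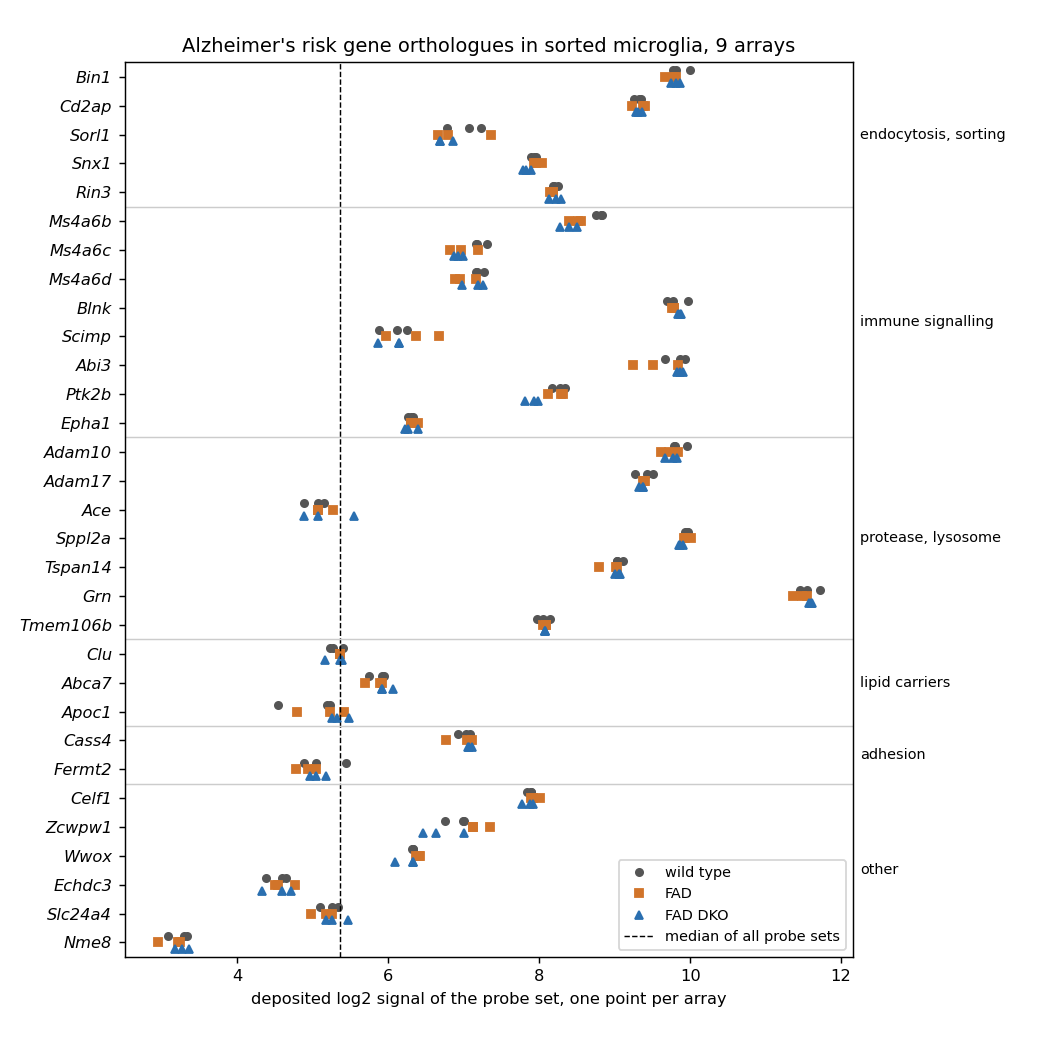
Deposited log2 signal (x axis) of the 31 measured risk genes, grouped by role, with 1 point per array for wild type (circles), FAD (squares) and FAD DKO (triangles) and the median of all probe sets (5.35) as a dashed line. The symbols of most genes overlap across genotypes, 24 genes lie right of the line on all arrays, and Ms4a6b, Ptk2b and Zcwpw1 show groups set apart.

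No measured risk gene passed an adjusted p under 0.05 in FAD against wild type, FAD DKO against FAD, or FAD DKO against wild type, in the limma fit of all 9 arrays adjusted over all genes. The smallest adjusted p were 0.357 (Ms4a6b), 0.349 (Ptk2b) and 0.114 (Ms4a6b). Over all genes 0.0406%, 0.0225% and 0.14% were called. In FAD against wild type 2 of 31 genes (6.45%) had an unadjusted p under 0.05, both lower, beside 8.43% of all genes (4.41% higher and 4.02% lower). FAD DKO against FAD gave 4 (12.9%), 1 higher and 3 lower, beside 8.1% of all genes (3.69% higher and 4.41% lower). FAD DKO against wild type gave 3 (9.68%), all lower, beside 8.14% of all genes (3.95% higher and 4.19% lower). The median difference over the 31 genes was -0.04, 0.00 and -0.01 on the log2 scale, beside -0.01, 0.01 and 0.00 over all genes.

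The arrays bound the size of most signal differences between these samples. The 95% interval lay wholly within 1.5-fold in either direction for 27 of 31 genes in FAD against wild type, 26 in FAD DKO against FAD and 29 in FAD DKO against wild type. Over all genes these shares were 87.4%, 87.5% and 87.5%, beside 87.1%, 83.9% and 93.5% of the risk genes. The counts include 6 of the 7 dim members in each comparison, whose low signals leave little room to see a decrease. The interval passed a 1.5-fold limit in at least 1 comparison for Apoc1, Sorl1, Scimp, Abi3 and Zcwpw1.

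**Figure D2:**
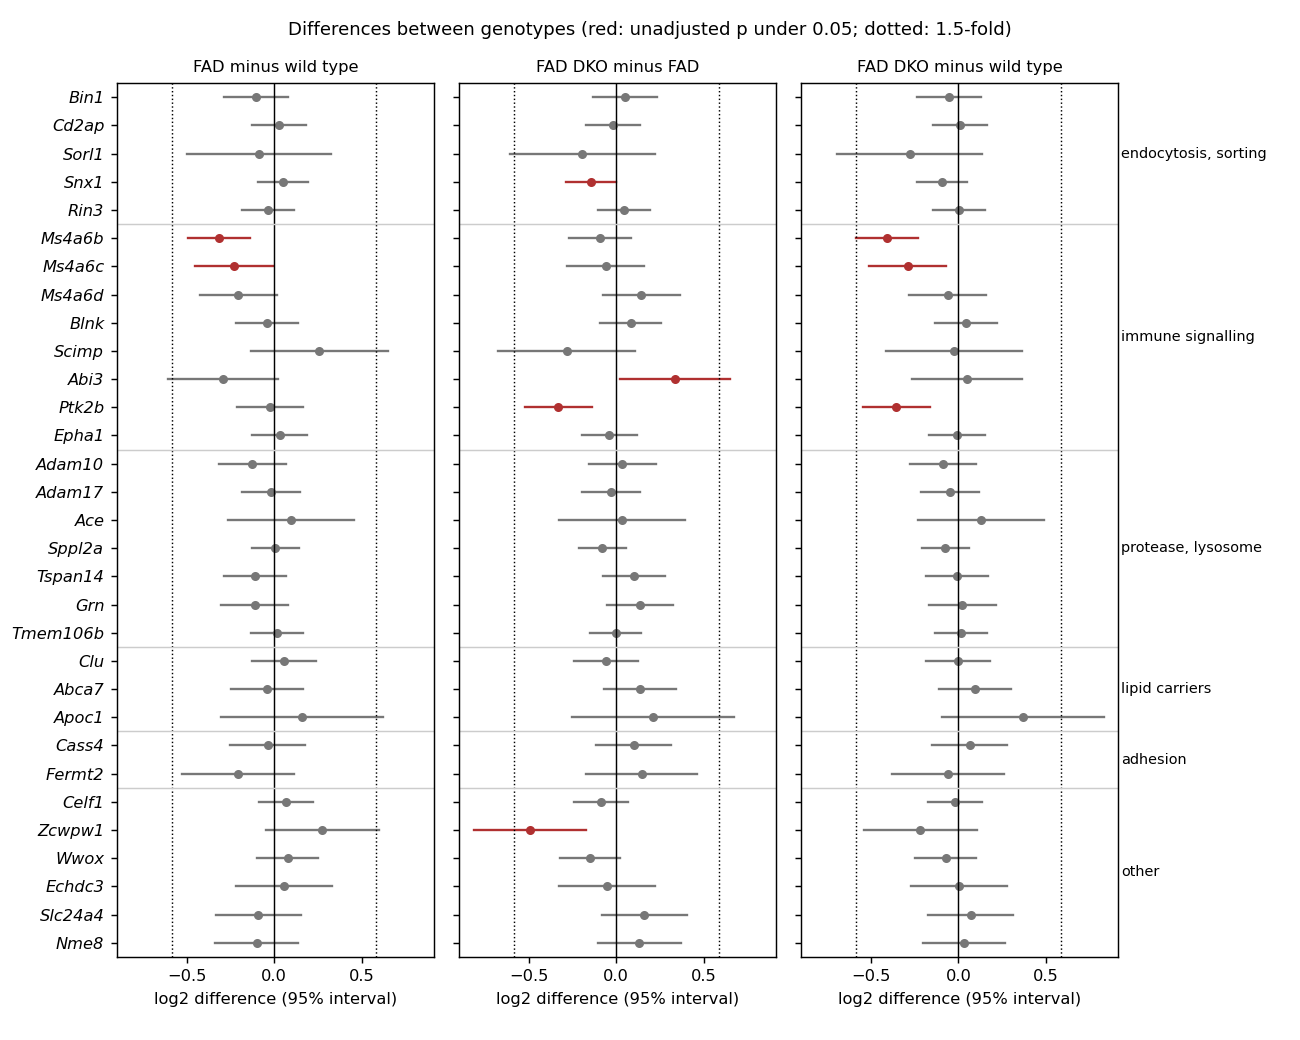
Log2 difference with its 95% interval (x axis) for the 31 measured risk genes in the 3 comparisons, with unadjusted p under 0.05 in red and 1.5-fold limits as dotted lines. Most intervals span 0 and stay inside the dotted lines; those of Ms4a6b and Ms4a6c in both comparisons with wild type, Ptk2b in both comparisons with FAD DKO, and Snx1, Abi3 and Zcwpw1 in FAD DKO against FAD exclude 0.

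Of the 8 immune signalling genes 2, 2 and 3 had an unadjusted p under 0.05 in FAD against wild type, FAD DKO against FAD and FAD DKO against wild type (25%, 25% and 37.5%, beside 8.43%, 8.1% and 8.14% of all genes). These counts come from Ms4a6b, Ms4a6c, Ptk2b and Abi3 in comparisons that share arrays, and the Ms4a6 probe sets may not be separate. MS4A proteins are multi-pass membrane proteins of leukocytes, and the human MS4A cluster is a leading Alzheimer's locus. Ms4a6b stood at 8.75, 8.83 and 8.82 on the wild type arrays, at 8.52, 8.39 and 8.55 on those of FAD, and at 8.40, 8.28 and 8.50 on those of FAD DKO. Every wild type array lay above every array of the other genotypes, while FAD and FAD DKO overlapped. FAD was at 0.805 times the wild type signal (95% interval 0.711 to 0.910; log2 difference -0.31, SE 0.0785, unadjusted p = 0.00313, limma adjusted p = 0.357). For FAD DKO the ratio to wild type was 0.754 (0.667 to 0.853; log2 difference -0.41, limma adjusted p = 0.114). With a filter on dim probe sets or a trended and robust variance model that second difference passed (limma adjusted p = 0.0366 and 0.0299); over all 15 alternative settings its adjusted p ran from 0.0299 to 0.346.

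The values of Ms4a6c were 7.31, 7.17 and 7.17 for wild type, 6.82, 6.96 and 7.18 for FAD, and 6.87, 6.93 and 6.98 for FAD DKO. Wild type lay above FAD DKO on every array, but overlapped with FAD through FAD replicate 3. The log2 difference was -0.23 in FAD (SE 0.0979, limma adjusted p = 0.585; -0.14 without FAD replicate 1) and -0.29 in FAD DKO (limma adjusted p = 0.454), each against wild type. On the wild type arrays Ms4a6d, the third copy, stood at 7.18, 7.27 and 7.16, on the FAD arrays at 6.88, 7.16 and 6.95, and on the FAD DKO arrays at 7.19, 6.98 and 7.25. Its FAD DKO values overlapped with both other groups, and its differences from wild type were -0.20 in FAD (95% interval -0.43 to 0.02) and -0.06 in FAD DKO (-0.28 to 0.16).

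All measured genes whose symbol begins with Ms4a, a set chosen after the values were seen, numbered 20 with these copies. In FAD against wild type 15 of them lay below 0, with a median of -0.12, beside 11552 of all 22180 genes and -0.01. Apart from Ms4a6b, Ms4a6c, Ms4a6d and Ms4a7, all of them lay below the array median on all 9 arrays. Such low signals limit what these counts can show. In FAD DKO against FAD 13 of the 20 lay above 0 (median 0.07), beside 11807 of all genes. Both comparisons share the FAD arrays with opposite sign. In FAD DKO against wild type 14 of the 20 lay below 0 (median -0.05), beside 10787 of all genes. In FAD against wild type the limma test over all genes called none. Unadjusted p was under 0.05 for 3, all lower and Ms4a6b and Ms4a6c among them (15%, beside 8.43% of all genes). The count was 1, higher, in FAD DKO against FAD (5%, beside 8.1%). It was 2, both lower, in FAD DKO against wild type (10%, beside 8.14%). Ms4a7, a marker of border macrophages, lay between 5.29 and 5.84 and differed by 0.14 in FAD against wild type (SE 0.138). Other leukocytes also use Ms4a6 genes. Mean signals of the 9 measured border macrophage markers were 5.42 to 5.64 for wild type, 5.39 to 5.57 for FAD and 5.30 to 5.56 for FAD DKO, and 3 of the 9 lay below the array median on all arrays. Lymphocyte markers gave 4.47 to 4.64, 4.47 to 4.54 and 4.53 to 4.71, with 8 of 9 below the array median on all arrays. The monocyte and neutrophil genes were lowest in wild type replicate 1 and FAD DKO replicate 1, and highest in FAD DKO replicate 2 (7.92). Ms4a6b differed between FAD DKO and wild type by -0.43 without wild type replicate 1 and by -0.41 without FAD DKO replicate 1. Without FAD DKO replicate 2 the difference was -0.35. The part of other cell types, and of the lower microglia markers in FAD DKO, in these results was not tested. In bulk samples fewer cells of a type and less RNA per cell cannot be told apart.

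Ptk2b, which encodes the calcium-responsive tyrosine kinase of the focal adhesion kinase family, stood at 8.35, 8.27 and 8.17 on the wild type arrays, at 8.12, 8.29 and 8.31 on those of FAD, and at 7.99, 7.81 and 7.93 on those of FAD DKO. All FAD DKO arrays lay below the arrays of both other groups, which overlapped with each other. FAD DKO was at 0.795 times the FAD signal (95% interval 0.697 to 0.907; log2 difference -0.33, SE 0.0842, limma adjusted p = 0.349) and at 0.783 times wild type (log2 difference -0.35, limma adjusted p = 0.219). These comparisons share the FAD DKO arrays. FAD and wild type differed by -0.02 (95% interval -0.21 to 0.17).

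The values of Abi3, a component of the WAVE complex that drives actin branching, were 9.93, 9.87 and 9.66 for wild type, 9.25, 9.51 and 9.84 for FAD, and 9.83, 9.87 and 9.91 for FAD DKO. The FAD arrays were spread most, and FAD replicate 3 lay within the other groups. FAD DKO differed from FAD by 0.34 (SE 0.139, limma adjusted p = 0.59), a value that was 0.20 without FAD replicate 1 and 0.49 without FAD replicate 3. Blnk, the adaptor that couples Syk to phospholipase signalling, was at 9.78, 9.78 and 9.76 on the FAD arrays and at 9.87, 9.84 and 9.86 on those of FAD DKO, and at 9.97, 9.70 and 9.78 on those of wild type. Its groups did not overlap between FAD and FAD DKO, yet they differed by only 0.08 (SE 0.0778). Scimp, an adaptor of Toll-like receptor signalling, differed by 0.26 in FAD against wild type and -0.28 in FAD DKO against FAD, with SE 0.173 each. Both values share the FAD arrays with opposite sign; they were 0.09 and -0.12 without FAD replicate 2, and 0.44 and -0.47 without FAD replicate 1. Epha1, an ephrin receptor, lay between 6.22 and 6.40 on all 9 arrays.

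**Figure D3:**
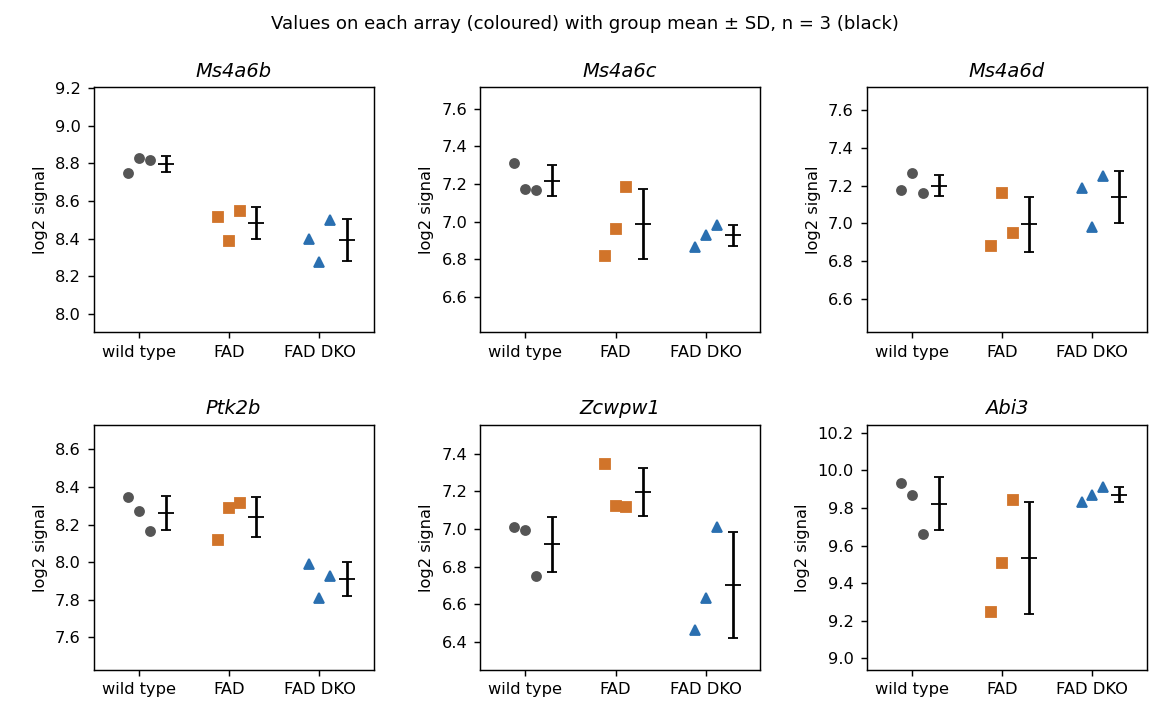
Log2 signal (y axis, same span in each panel) on each array for Ms4a6b, Ms4a6c, Ms4a6d, Ptk2b, Zcwpw1 and Abi3, coloured by genotype, with the group mean ± SD (n = 3) in black. Ms4a6b is above all others in wild type, Ptk2b is below all others in FAD DKO, Zcwpw1 is highest in FAD, and Ms4a6d and Abi3 overlap between groups.

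Of the 5 measured genes of endocytosis and endosomal sorting 1 reached an unadjusted p under 0.05, in FAD DKO against FAD (20%, beside 8.1% of all genes). Bin1, a membrane-curving adaptor, had means of 9.86 ± 0.12 for wild type, 9.76 ± 0.0771 for FAD and 9.81 ± 0.0646 for FAD DKO (SD, n = 3), and its largest difference was -0.10 (95% interval -0.29 to 0.08). Cd2ap, which links receptors to actin, and Rin3 differed by at most 0.04 in size in each comparison. On the wild type arrays Snx1, a sorting nexin of the retromer pathway, stood at 7.89, 7.96 and 7.92, on the FAD arrays at 7.96, 8.04 and 7.93, and on the FAD DKO arrays at 7.78, 7.89 and 7.83. Its FAD DKO arrays lay below all FAD arrays by a small margin (log2 difference -0.14, SE 0.0639, limma adjusted p = 0.615). Sorl1, the receptor that steers the amyloid precursor through the retromer, was uneven within groups, with 7.23, 7.06 and 6.77 for wild type, 6.66, 7.36 and 6.79 for FAD, and 6.69, 6.69 and 6.86 for FAD DKO. It differed by -0.28 in FAD DKO against wild type, with an interval from -0.69 to 0.13, and by -0.17 without wild type replicate 1.

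None of the 7 genes of proteases and lysosomes reached an unadjusted p under 0.05 in any comparison, and all 7 intervals lay within 1.5-fold in each. Adam10, the main alpha-secretase, had means of 9.85 for wild type, 9.72 for FAD and 9.76 for FAD DKO, and Adam17, the protease that sheds TNF, of 9.40, 9.38 and 9.36. Tspan14, a tetraspanin that escorts Adam10 to the cell surface, had means of 9.06, 8.95 and 9.05. Grn encodes progranulin, a secreted and lysosomal protein whose loss causes frontotemporal dementia. Its wild type arrays gave 11.72, 11.55 and 11.45, its FAD arrays 11.36, 11.48 and 11.54, and its FAD DKO arrays 11.58, 11.60 and 11.61. The FAD DKO values lay just above all FAD values and within those of wild type (log2 difference from FAD 0.14, SE 0.0839, and 0.08 without FAD replicate 1). Tmem106b, a lysosomal membrane protein that modifies progranulin disease, lay between 7.98 and 8.15 on all arrays. Sppl2a gave 9.97, 9.95 and 9.93 for wild type, 9.93, 10.02 and 9.92 for FAD, and 9.85, 9.91 and 9.87 for FAD DKO. Its FAD DKO arrays lay below all others by a small margin (log2 difference from FAD -0.08, SE 0.0598, and -0.05 without FAD replicate 2). Ace, angiotensin-converting enzyme, was dim and ran from 4.88 to 5.55.

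None of the 3 lipid carrier and 2 adhesion genes reached an unadjusted p under 0.05 in any comparison. Abca7, a lipid transporter of the ABC family, had means of 5.87 ± 0.108 for wild type, 5.83 ± 0.126 for FAD and 5.97 ± 0.0854 for FAD DKO (SD, n = 3). Apoc1 stood at 4.54, 5.19 and 5.22 on the wild type arrays, at 4.79, 5.22 and 5.41 on those of FAD, and at 5.47, 5.32 and 5.26 on those of FAD DKO. The FAD DKO arrays lay above all wild type arrays, with a log2 difference of 0.37 (95% interval -0.10 to 0.83) that was 0.15 without wild type replicate 1. For Cass4, a scaffold of adhesion signalling, the brighter probe set differed by 0.06 and the dimmer by -0.10 in FAD DKO against wild type (SE 0.0996 and 0.0977, from a fit of all probe sets). Fermt2, the integrin activator kindlin-2, gave -0.21 in FAD against wild type (SE 0.141), and -0.33 without wild type replicate 2 or -0.04 without wild type replicate 3.

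Among the remaining members Zcwpw1, a reader of histone methylation that acts in meiosis, had the largest difference of all 31 genes. Its wild type arrays gave 7.01, 7.00 and 6.75, its FAD arrays 7.34, 7.12 and 7.12, and its FAD DKO arrays 6.46, 6.63 and 7.01. FAD lay above every array of the other genotypes, and FAD DKO replicate 3 reached the wild type values. FAD DKO was at 0.710 times the FAD signal (95% interval 0.568 to 0.889; log2 difference -0.49, SE 0.143, limma adjusted p = 0.407), and FAD differed from wild type by 0.28 (limma adjusted p = 0.656). The FAD arrays enter both comparisons with opposite sign. Wwox, an oxidoreductase and tumour suppressor, had the same order by less, at 6.33, 6.33 and 6.31 for wild type, 6.42, 6.37 and 6.41 for FAD, and 6.09, 6.33 and 6.33 for FAD DKO (log2 difference of FAD DKO from FAD -0.15, SE 0.0765, and -0.07 without FAD DKO replicate 1). The RNA-binding protein gene Celf1 lay between 7.77 and 8.02 on all arrays. Echdc3, Slc24a4 and Nme8 were dim, and their differences ran from -0.10 to 0.16.

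The groups of 3 did not overlap for 3 of 31 genes in FAD against wild type (Zcwpw1 and Wwox higher, Ms4a6b lower), where 11.8% of all genes did not overlap (6.37% higher and 5.46% lower). In FAD DKO against FAD they did not overlap for 7 (Blnk and Grn higher; Snx1, Ptk2b, Sppl2a, Zcwpw1 and Wwox lower), or 22.6% beside 11.9% of all genes (5.38% higher and 6.5% lower). For FAD DKO against wild type the count was 6 (Apoc1 higher; Snx1, Ms4a6b, Ms4a6c, Ptk2b and Sppl2a lower), or 19.4% beside 11.9% (5.77% higher and 6.15% lower). Blnk and Sppl2a separated with a difference of 0.08 or less in size in FAD DKO against FAD.

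A further 46 genes near risk loci, among them those of the myeloid receptors Trem2 and Cd33 and the phospholipase Plcg2, were set beside the members, and 45 were measured. Apoe, the apolipoprotein that astrocytes and activated microglia secrete and the strongest common risk gene, was the only one called, at 5.57 ± 0.193 for wild type, 6.55 ± 0.286 for FAD and 7.00 ± 0.227 for FAD DKO (SD, n = 3). It rose by 1.42 in FAD DKO against wild type (limma adjusted p = 0.0261). That call held in 7 of 15 alternatives, with differences from 1.33 to 1.55 and limma adjusted p from 0.00808 to 0.133. It was lost without any 1 of the wild type or FAD DKO arrays (1.33 to 1.55), without FAD replicate 3 (1.42) and with only these 2 groups in the fit. Apoe differed by 0.98 in FAD against wild type (limma adjusted p = 0.141). Genes typical of plaque-associated microglia, a list without Apoe, were also higher in both comparisons with wild type. Of 11 measured, 10 had an unadjusted p under 0.05 in FAD and 11 in FAD DKO, all higher (medians 1.47 and 1.88). These were 90.9% and 100%, beside 8.43% and 8.14% of all genes. In FAD DKO against FAD, where Apoe differed by 0.45, 2 of the 11 had such a p (18.2%, beside 8.1%). There 9 of the 11 lay above 0 and 2 below. The part of these plaque-associated genes in the Apoe result was not tested. Counts with an unadjusted p under 0.05 were 7, 9 and 6 of the 45, in the order of comparisons above. These were 15.6%, 20% and 13.3%, beside 8.43%, 8.1% and 8.14% of all genes. Of them 5, 4 and 5 were higher and 2, 5 and 1 lower. The medians over the 45 were 0.00, 0.02 and 0.00. The values of Adamts1, a secreted metalloprotease, were 9.20, 9.45 and 9.04 for wild type, 10.46, 10.05 and 9.94 for FAD, and 9.45, 9.28 and 9.28 for FAD DKO. It was higher in FAD than on every other array (log2 difference 0.92 from wild type, limma adjusted p = 0.118; FAD DKO minus FAD -0.82, limma adjusted p = 0.212). The first of these passed with the filter on dim probe sets and with the trended and robust model (limma adjusted p = 0.0423 and 0.0374). Otulin, a deubiquitinase that trims linear ubiquitin chains, was at 0.24 and -0.29 in the same comparisons (limma adjusted p = 0.508 and 0.407). Plekha1, a phosphoinositide-binding protein, differed by 0.34 in FAD against wild type and 0.25 in FAD DKO against wild type (limma adjusted p = 0.195 and 0.336). Plcg2 was at -0.22 in FAD DKO against wild type (SE 0.0665, limma adjusted p = 0.375), and the class II gene H2-Ab1 at 0.96 with wide spread (SE 0.29, limma adjusted p = 0.384). In FAD DKO against FAD Adamts4 was at 0.33 and Idua at -0.25 (limma adjusted p = 0.309 and 0.504). Rbck1 was at -0.17 and Ctsb at 0.22 in FAD against wild type (limma adjusted p = 0.514 and 0.539). In FAD DKO against wild type Ctsb was at 0.26 and Rasgef1c at 0.23 (limma adjusted p = 0.400 and 0.590). Adamts4 and Rasgef1c lay below the array median on all 9 arrays.

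**Figure D4:**
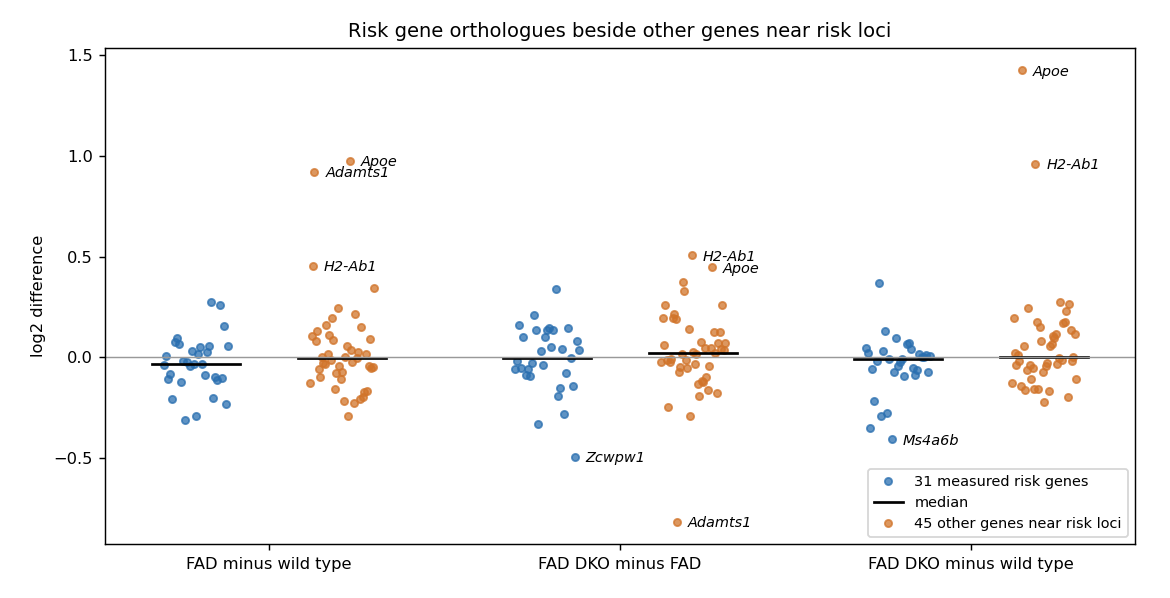
Log2 difference (y axis) of the 31 measured risk genes (blue) and 45 other genes near risk loci (orange) in the 3 comparisons, with list medians as bars and genes named at a size of 0.4 or more. The blue points stay between -0.49 and 0.37, while Apoe reaches 1.42 and Adamts1 0.92 and -0.82 among the orange points.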

How the data were processed

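The deposited table held log2 signals per probe set for 9 arrays, made by the authors with RMA per the submitters' processing notes; its version is not given in the sources used here. RMA corrects background, quantile-normalizes and summarises probes. Array medians lay between 5.35 and 5.40. Of 41345 probe sets 23521 had 1 gene symbol in the platform annotation, 1814 had several and 16010 were not listed; the brightest per symbol left 22180 genes. Detection calls were not used here. No 2 arrays were copies (smallest SD of a difference 0.335).

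Group means of the 3 genotypes were fitted in 1 model with limma 3.58.1 in R 4.3.3 (6 residual degrees of freedom, 8.98 after moderation). Tests are two-sided with Benjamini-Hochberg adjustment over all genes, called under 0.05. The number of arrays limits precision; the median SE of a difference was 0.104. The fit was tested on simulated data. Members and lists were chosen with earlier results of these data known. All members are accounted for; every array value is given for those with an unadjusted p under 0.05 or groups that do not overlap, and from the other risk genes the text draws on the 6 with the smallest p in each comparison. Alternatives were a filter on dim probe sets, quantile normalization, a variance trend with robust moderation, fits of 2 groups alone, averaging a gene's probe sets, blocking on replicate number, and omitting single arrays. Sequences are from RefSeq (GRCm38.p6), aligned with Biopython 1.88 (match 1, mismatch -1, gap open -3, gap extension -1). Figures used Python 3.11.15 and matplotlib 3.10.9.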

Additional observations from a re-analysis of the deposited data

How the results depend on the processing

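None of the 31 measured members was called under the alternatives run (15, or 14 for the 7 dim members, which the filter leaves out), except Ms4a6b in FAD DKO against wild type, 1 called gene each with the filter on dim probe sets and with the trended and robust variance model. Of 1374 differences of single members recomputed, 71 changed sign, 0 of them among those with an unadjusted p under 0.05 in the main fit, and 5 moved by more than the spread between replicates. Leaving out each array moved the median difference over the members between -0.04 and 0.00 in FAD against wild type, -0.02 and 0.03 in FAD DKO against FAD, and -0.03 and 0.01 in FAD DKO against wild type. The number of called genes over the whole table was less stable. It was 33, 11 and 117 with the filter, 43, 12 and 124 with the trended and robust model, and 5, 0 and 13 with only the groups compared, in that order of comparisons, beside 9, 5 and 31. Quantile normalization gave 3 in FAD DKO against FAD, and leaving out each array gave 8 to 12, 0 to 5 and 2 to 28. The replicate block gave 2 genes in FAD DKO against FAD and 11 in FAD DKO against wild type, and 0 members in each. The labels do not say whether the replicate numbers pair the samples. Deviations of same-numbered arrays from their group means correlated from -0.11 to 0.12, which cannot settle this with 3 arrays per group. The cause of the changes in the number of called genes was not tested. Low signal limits what can be said of the 7 dim members.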
